A study of Mus musculus with 23 samples.

Results

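The 31 genes described here encode glutamate receptors and the scaffold proteins that hold them at the postsynaptic membrane. They were chosen by name: 4 AMPA, 5 kainate and 6 NMDA receptor subunits, the delta receptor Grid1, 6 metabotropic glutamate receptors and 9 scaffolds. All 31 were found among the 52636 genes of the count files, and all were among the 17788 genes that passed the filter on low counts. Whole hippocampus was profiled by RNA-seq in wild-type (WT) mice and in P301S tau transgenic mice, under normoxia (normal air) or hypoxia. In normoxia 6 libraries were WT and 5 were P301S, and in hypoxia each genotype had 6. The P301S change in human tau causes a familial form of frontotemporal dementia, and the hypoxia, according to the series title, was chronic and intermittent, a model of the oxygen loss of sleep apnoea. Mice of every group had a mixed background of C57Bl6 and Balbc. The sources used here give neither age nor sex, hypoxia regimen or transgene promoter. Nor do they tie every library to its own animal, so the p-values reflect library-to-library spread, which may be technical.

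Glutamate carries most fast excitation in the hippocampus. AMPA receptors pass the fast current, NMDA receptors admit calcium and start synaptic plasticity, and kainate receptors modulate release and excitability. Metabotropic receptors signal through G proteins, group I mainly postsynaptic and group III mainly presynaptic. Beneath the membrane the Dlg proteins bind receptors, Dlgap1 links them to Shank proteins, and Homer proteins tie Shanks to group I metabotropic receptors.

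Total counts ran from 19134422 to 25820145 per library. The 10 markers of CA1 pyramidal cells summed to 784 to 1090 CPM (counts scaled to a common library size, with TMM factors) and the 10 markers of dentate granule cells to 528 to 871 CPM over the 23 libraries. Prn, at the prion locus, separated the genotypes, with 0.0413 to 0.400 CPM in 12 WT and 2.56 to 5.79 CPM in 11 P301S libraries, while mouse Mapt overlapped (642 to 741 CPM in WT, 611 to 780 CPM in P301S). The 15 choroid plexus markers, of which Kcnj13 was at 0 in every library, summed to 70.4 to 3726 CPM, with libraries under 103 CPM in WT normoxia, WT hypoxia and P301S hypoxia and none under 598 CPM in P301S normoxia.

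WT hypoxia replicate 1, which also had the lowest total count, stood apart from the other 22 libraries. Of 12 cerebellar marker genes, 8 were highest in it. Cbln3, a gene of cerebellar granule cells, was at 243 CPM there and at 0.300 to 1.23 CPM elsewhere. Gabra6, a GABA receptor subunit of the same cells, was at 143 CPM against at most 0.439 CPM. The remaining 4 markers (Cbln1, Cdh15, Neurod1, Pcp2) had 0 counts in every library, and each lies wholly under another annotated gene. The summed markers reached 941 CPM in this library and at most 71.9 CPM in any other.

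Among the receptor and scaffold genes, 4 of 31 were highest in that library and 3 were lowest. Grm4, a group III metabotropic receptor abundant in cerebellar granule cells, was at 155 CPM there and at 20.04 to 43.0 CPM in the others. Grin2c, the NMDA subunit typical of mature cerebellum, was at 176 CPM against 70.6 to 107 CPM. Homer3, a scaffold abundant in Purkinje cells, was at 69.0 CPM against 24.0 to 43.1 CPM. These 3 genes stood clear of every other library, whereas the AMPA subunit Gria4, at 149 CPM, lay closer to the next library at 136 CPM. Genes called in a comparison that uses WT hypoxia are therefore given with and without this library. Other values include it unless stated.

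**Figure D1:**
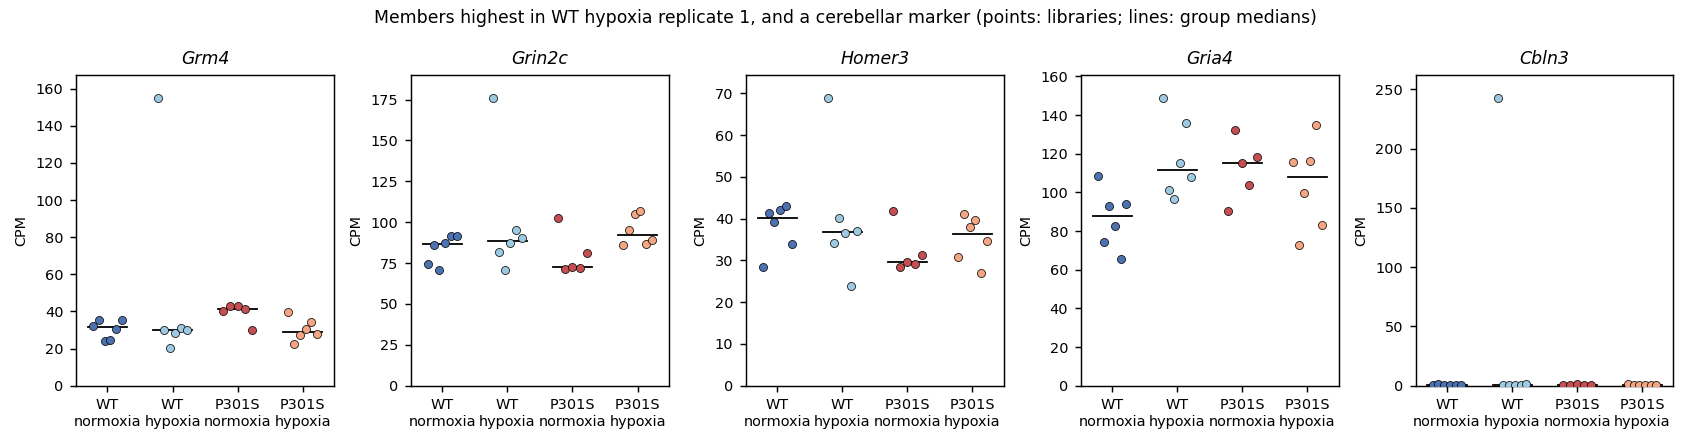
CPM (linear axes) of Grm4, Grin2c, Homer3, Gria4 and the cerebellar marker Cbln3 in each library (points) by group, with the group median as a line. The highest point of each panel is WT hypoxia replicate 1, at 155 CPM for Grm4 and 243 CPM for Cbln3.

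Levels between genes were compared as CPM per kb of exon, averaged over the 23 libraries. Gria1, the main AMPA subunit of CA1 together with Gria2, was highest at 255 CPM per kb of exon. Shank1 (91.4), the kainate subunit Grik5 (68.0), Gria2 (64.6), which makes AMPA receptors impermeable to calcium, and Dlg4 (54.9), the gene of PSD-95, came next on the same scale. The lowest were Grm8 (1.38), the NMDA subunit Grin2d (2.98), which marks interneurons, and Grin3a (5.34). Grm8 still had at least 177 counts in every library. Reads in introns were counted too, so the order depends on the length used: per kb of gene body Dlg4 (25.6) and Shank1 (19.1) led and Gria1 (4.83) had rank 10. The rank correlation of the 2 orders was 0.64 over the 31 genes, and 7 genes were among the highest 10 of both.

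**Figure D2:**
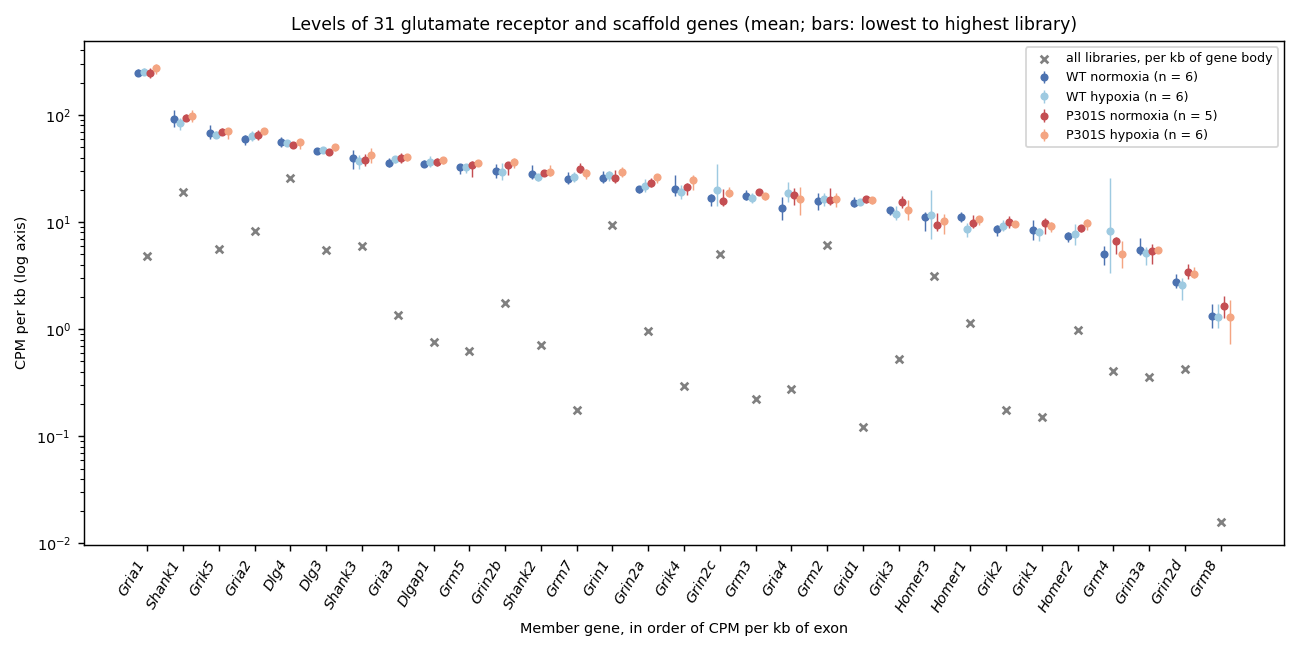
Levels of the 31 genes as CPM per kb of exon on a log axis (points are group means, bars run from the lowest to the highest library), with the mean CPM per kb of gene body over all libraries as grey crosses. Gria1 is highest per kb of exon (255 over all libraries) and Grm8 is lowest on both scales.

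Summed over families, levels were close between the groups. The 4 AMPA subunits summed to 353 ± 20.4 CPM per kb of exon in WT normoxia and 374 ± 23.3 in WT hypoxia (SD, n = 6 each). In P301S they summed to 369 ± 29.7 in normoxia (n = 5) and to 402 ± 24.2 in hypoxia (n = 6). The 6 NMDA subunits summed to 102 ± 5.64, 106 ± 6.77, 108 ± 3.02 and 119 ± 8.78 CPM per kb of exon in the same order of groups. The 9 scaffolds summed to 326 ± 32.0, 314 ± 15.3, 321 ± 10.5 and 344 ± 28.0 CPM per kb of exon. The 5 kainate subunits summed to 118 ± 11.8, 113 ± 5.85, 125 ± 3.63 and 127 ± 9.74 CPM per kb of exon, and the 6 metabotropic receptors to 97.2 ± 4.43, 102 ± 6.25, 109 ± 4.94 and 104 ± 5.27. WT hypoxia includes replicate 1, whose high Grm4, Grin2c, Homer3 and Gria4 enter the metabotropic, NMDA, scaffold and AMPA sums. P301S hypoxia had the highest mean in 4 of these 5 families and P301S normoxia in the metabotropic receptors, and the range of P301S hypoxia overlapped that of each other group in all 5. The ratio of Grin2a to Grin2b CPM, which rises as synapses mature, was 0.493 ± 0.0378, 0.541 ± 0.0537, 0.503 ± 0.0631 and 0.528 ± 0.0370, with overlapping ranges.

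In normoxia, 1 of the 31 genes differed between P301S and WT: the presynaptic group III receptor Grm7 rose. Over all tested genes 1130 (6.35%) passed the test, 2.57% higher and 3.78% lower. Here and below, the test is edgeR's quasi-likelihood test with Benjamini-Hochberg adjustment over all 17788 genes, called below 0.05. For the 31 genes the median log2 difference was 0.07, 23 lying above 0 and 8 below, against a median of 0.01 over all tested genes. At an unadjusted p below 0.05 stood 12 of the 31 and 22.8% of all tested genes. In bulk tissue, fewer cells of a type and less RNA per cell cannot be told apart. The 13 thalamus and habenula markers, none at 0, summed to 512 to 668 CPM in WT normoxia (median 536) and 563 to 705 CPM in P301S normoxia (median 663). In WT and P301S normoxia, medians were 1028 and 950.3 CPM for the interneuron markers, with Dlx1 at 0 in every library. For the CA2 and CA3 markers, with Cpne7 at 0, they were 1088 and 906 CPM. Both pairs of ranges overlapped. The part of these markers in the result was not tested. The choroid plexus markers had medians of 3180 CPM (WT) and 844 CPM (P301S). With a choroid plexus covariate Grm7 alone of the 31 was called, beside 6.75% of all tested genes. The same held without the 6 libraries lowest in choroid plexus markers, beside 2.16%.

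Grm7 (chromosome 6, 110645581 to 111567230, GRCm38) had 134, 149 and 172 CPM as lowest, median and highest value in WT normoxia. The 5 P301S normoxia libraries had 169, 171, 186, 189.7 and 209 CPM. The groups overlapped through the highest WT library alone. The log2 fold change was 0.32 (SE 0.0731, adjusted p = 0.0132). Mean levels were 148 ± 13.8 CPM in the WT libraries (SD, n = 6) and 185 ± 16.5 CPM in the P301S libraries (n = 5). Without P301S normoxia replicate 2 the adjusted p was 0.0573, and leaving out any other library kept the call. DESeq2 called Grm7 alone among the 31, beside 9.23% of all tested genes. In hypoxia Grm7 had 138, 155 and 173 CPM in WT and 148, 171 and 183 CPM in P301S, a log2 difference of 0.13 (SE 0.0699, adjusted p = 0.352).

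The other genes with low p-values did not pass. The kainate subunit Grik2 had 98.8, 118 and 124 CPM as lowest, median and highest value in WT normoxia and 118, 122, 128, 139 and 151 CPM in P301S normoxia. Its log2 difference was 0.20 (SE 0.0683, adjusted p = 0.0786). Grin2d had 16.2, 18.1 and 21.9 CPM in WT normoxia and 19.8, 20.1, 20.4, 25.7 and 26.9 CPM in P301S normoxia, a log2 difference of 0.30 (SE 0.103, adjusted p = 0.0833). Of the exons of Grin2d, 40.8% lie under another gene, where the counting tool by default drops reads, so its count is uncertain. Grin2a was the only one of the 31 whose ranges did not overlap (332 to 382 CPM in WT, 384 to 460 CPM in P301S), at an adjusted p of 0.0925; 1.62% of all tested genes had such ranges in that direction. All 4 AMPA subunits (0.02 to 0.38) and all 5 kainate subunits (0.01 to 0.25) lay above 0, as did the 6 metabotropic receptors, though Gria1, Gria2, Gria3, Grik2, Grik4 and Grm5 lay below 0 once the length and GC trend described next was removed. Dlg3 (-0.04) and Dlg4 (-0.12) lay below 0. Without WT normoxia replicate 1 Gria3, Grik1 and Grik2 were called beside Grm7, with 2069 of all 17746 tested genes called. Without P301S normoxia replicate 1 Grik1 and Grik2 were called beside Grm7, with 1914 of all 17919 tested genes called.

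These values moved with gene length. The 31 genes are long, with a median gene body of 223 kb against 22.3 kb over all tested genes, and Grm7 is the longest of them at 922 kb. All 16 of them over 200 kb lay above 0 (median 0.16), against 7 of the 15 shorter ones (median -0.02). The rank correlation of fold change with length was 0.54 over the 31 genes and 0.40 over all tested genes, which share these libraries and are not replicates. A length score, the mean level of the longest minus that of the shortest 10% of genes on the centred log2 scale, ran from -0.19 to 0.04 in WT normoxia and from -0.06 to 0.25 in P301S normoxia. The 2 libraries that overlapped were the WT normoxia and P301S normoxia replicates 1 named above. Of the longest 10% of genes, 10.7% were called.

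With each library's trend on length and GC content removed, Grm7 was at 0.09 (SE 0.0639, adjusted p = 0.481), Grik2 at -0.10 and the median of the 31 genes at -0.02. Of the 31, 12 changed sign, none of them called. In that fit Homer1 was called instead, at -0.38 (SE 0.0773, adjusted p = 0.0124), where the uncorrected value was -0.17 (SE 0.0823, adjusted p = 0.208). The corrected fit called 2.82% of all tested genes.

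**Figure D3:**
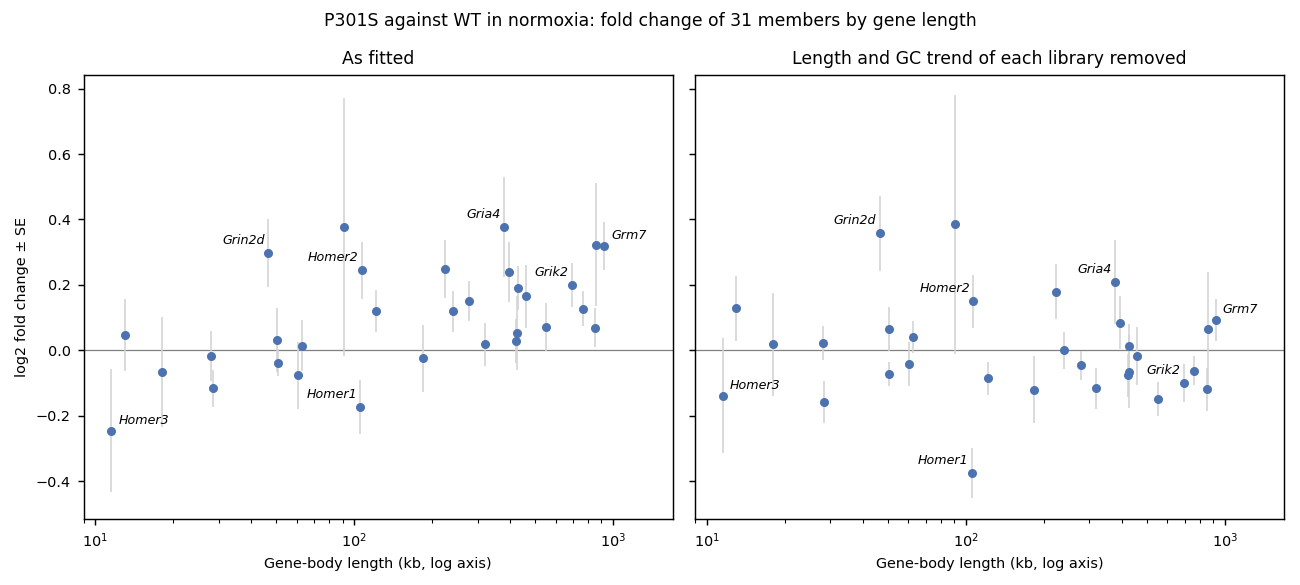
Log2 fold change (± SE) of the 31 genes for P301S against WT in normoxia, plotted against gene-body length in kb on a log axis, as fitted (left) and with each library's length and GC trend removed (right). All 16 genes over 200 kb lie above 0 on the left, with Grm7 at 0.32; on the right Grm7 is at 0.09 and Homer1 at -0.38.

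In hypoxia, 3 of the 31 genes were higher in P301S than in WT: the NMDA subunit Grin2a and the scaffolds Homer2 and Homer1. Over all tested genes 333 (1.87%) passed, 0.528% higher and 1.34% lower. The median log2 fold change of the 31 genes was 0.11, with 26 above 0 and 5 below, against 0.00 over all tested genes. At an unadjusted p below 0.05 were 10 of them and 18.2% of all tested genes. Without WT hypoxia replicate 1 only Grin2a was called among them, beside 1.52% of all tested genes. With no filter on low counts Grin2a alone was called as well (beside 0.711%), and with only the 2 groups compared in the fit 0 were (beside 1.07%). The summed dentate granule cell markers, 10 of 10 measured and none at 0, ran from 572 to 852 CPM in WT hypoxia (median 623) and from 653 to 871 CPM in P301S hypoxia (median 708). Their part in the result was not tested.

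Grin2a encodes the NMDA subunit GluN2A of mature synapses (chromosome 16, 9567898 to 9995560, GRCm38). It had 343, 389.7 and 455 CPM as lowest, median and highest value in WT hypoxia and 412, 479 and 503 CPM in P301S hypoxia. The highest WT library lay above the 2 lowest of P301S, so the ranges overlapped. The log2 fold change was 0.27 (SE 0.0651, adjusted p = 0.0299), with means of 390.1 ± 39.6 CPM and 472 ± 35.5 CPM (SD, n = 6 each). Without WT hypoxia replicate 1 it was 0.28 (SE 0.0697, adjusted p = 0.0459). Leaving out any 1 of 7 libraries, WT hypoxia 2, 5 and 6 and P301S hypoxia 2 to 5, ended the call, with adjusted p up to 0.0910.

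Homer2 (chromosome 7, 81600481 to 81707527, GRCm38) had 77.1, 96.9 and 121 CPM in WT hypoxia and 106, 128 and 136 CPM in P301S hypoxia, with overlapping ranges. It rose by 0.34 on the log2 scale (SE 0.0839, adjusted p = 0.0377), and without WT hypoxia replicate 1 the value was 0.34 (SE 0.0900, adjusted p = 0.0552). The call ended without any 1 of 8 libraries, WT hypoxia 1, 2, 4 and 6 and P301S hypoxia 2 to 5, with adjusted p up to 0.112. In normoxia Homer2 had 81.6, 93.5 and 102 CPM in WT and 101, 107, 114, 114 and 115 CPM in P301S, a log2 difference of 0.24 (SE 0.0879, adjusted p = 0.0954).

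Homer1 (chromosome 13, 93299635 to 93405129, GRCm38) had 86.6, 103 and 117 CPM in WT hypoxia and 112, 132 and 133 CPM in P301S hypoxia. Only the lowest P301S library lay within the WT range. The log2 fold change was 0.30 (SE 0.0787, adjusted p = 0.0458), and 0.28 (SE 0.0819, adjusted p = 0.0839) without WT hypoxia replicate 1. Leaving out 1 library ended this call in 15 of 23 cases, with adjusted p up to 0.120: WT normoxia 3, 5 and 6, WT hypoxia 1, 2, 5 and 6, P301S normoxia 2 to 4 and P301S hypoxia 1 to 5. The length score ran from -0.13 to -0.008 in WT hypoxia and from 0.015 to 0.13 in P301S hypoxia, without overlap. The rank correlation of this genotype difference with length was 0.14 over the 31 genes and 0.27 over all tested genes. With the length and GC trend removed Grin2a was at 0.20 (SE 0.0647, adjusted p = 0.122), Homer2 at 0.27 (SE 0.0784, adjusted p = 0.0811) and Homer1 at 0.21 (SE 0.0737, adjusted p = 0.153). None of the 31 was called there, beside 1.34% of all tested genes, nor without the 6 libraries lowest in choroid plexus markers, beside 0.089%.

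Several further genes lay above 0 without passing. Grik4, a high-affinity kainate subunit, was at 0.39 (SE 0.108, adjusted p = 0.0606), Grin2b, the gene of GluN2B, at 0.30 (SE 0.0925, adjusted p = 0.0853) and Grin2d at 0.35 (SE 0.100, adjusted p = 0.0697). Without WT hypoxia replicate 1 Grik4 was at 0.35 (adjusted p = 0.106), Grin2b at 0.26 (adjusted p = 0.148) and Grin2d at 0.33 (adjusted p = 0.104). The ranges of Grin2d did not overlap (12.6 to 19.8 CPM in WT, 20.1 to 25.2 CPM in P301S), as in 0.68% of all tested genes in that direction. DESeq2 called these 3 genes with the 3 above, 6 in all, beside 4.81% of all tested genes. Without WT hypoxia replicate 3, 5 genes were called, Grik4 and Grin2b among them, beside 519 of all 17734 tested genes. The 3 Shank genes lay between 0.17 and 0.23 and the AMPA subunits between -0.18 and 0.14. Grm4 was at -0.68 (SE 0.376, adjusted p = 0.354) with all libraries and at 0.12 without WT hypoxia replicate 1, Grin2c at -0.08 and 0.16, and Homer3 at -0.19 and 0.03, so these 3 directions turned with that library.

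**Figure D4:**
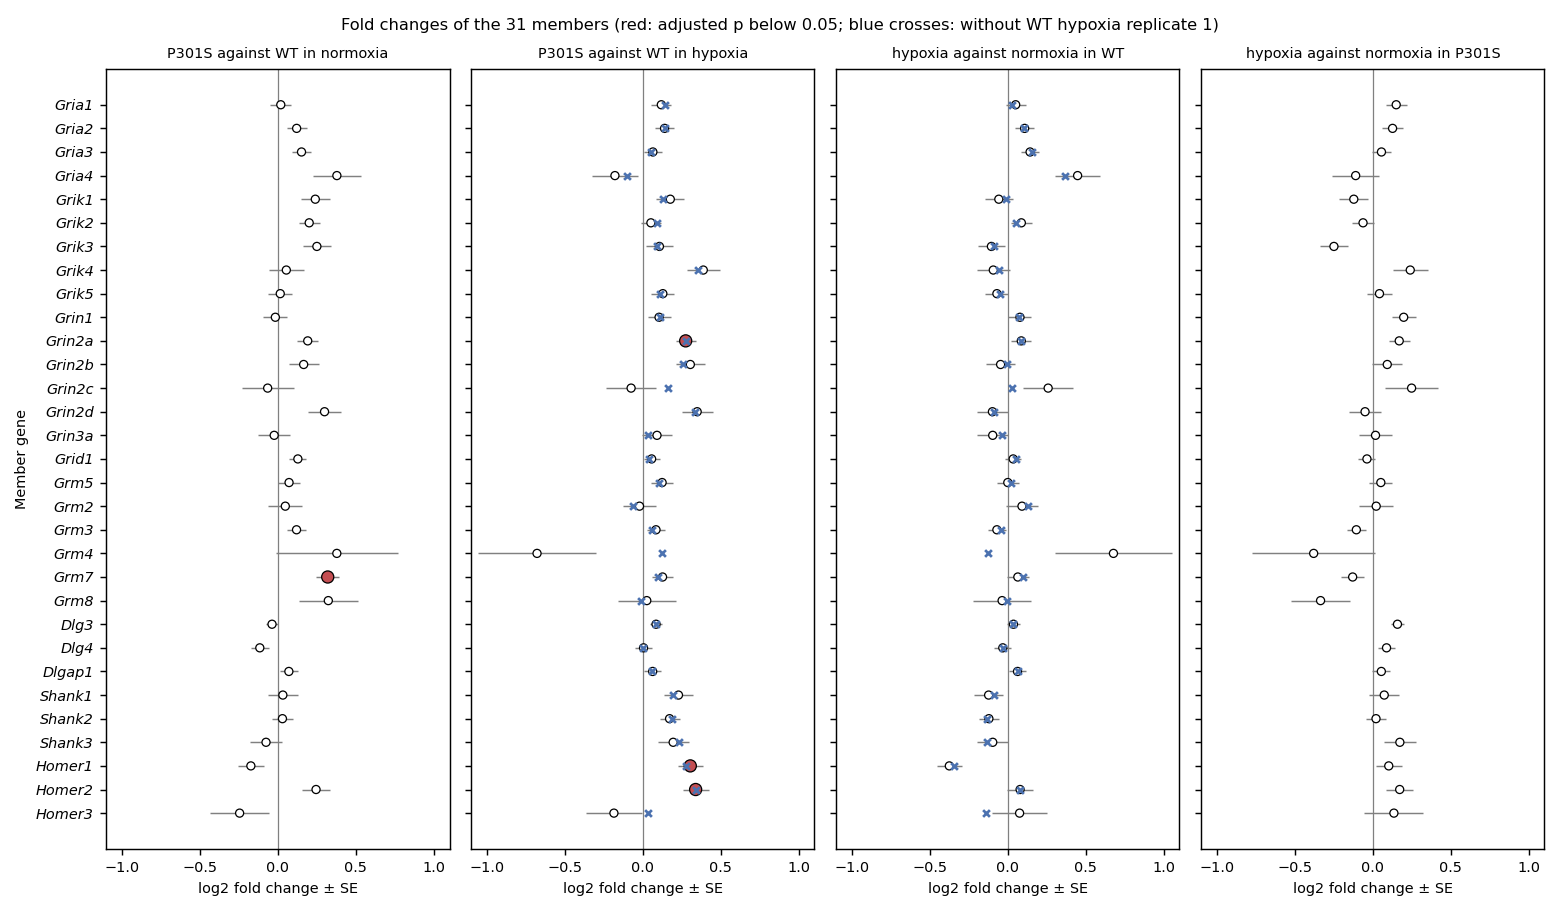
Log2 fold changes (± SE) of the 31 genes in 4 comparisons, with called genes in red and, for the 2 comparisons that use WT hypoxia, the values without WT hypoxia replicate 1 as blue crosses. For P301S against WT, Grm7 (0.32) is called in normoxia and Grin2a (0.27), Homer1 (0.30) and Homer2 (0.34) in hypoxia. The crosses of Grm4, Grin2c and Homer3 lie far from their circles.

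Hypoxia against normoxia in WT gave 0 calls among the 31 genes by edgeR's quasi-likelihood test, beside 13 of all tested genes (0.0731%). At an unadjusted p below 0.05 were 3 of the 31 and 11.6% of all tested genes, and DESeq2 called 1, Homer1, lower in hypoxia, beside 0.85% of all tested genes. The median was 0.03, with 16 above 0 and 15 below. Without WT hypoxia replicate 1 the median was -0.003, and Grm5, Grm4 and Homer3 changed sign. All 4 AMPA subunits lay above 0 (0.05 to 0.45) and all 3 Shank genes below (-0.12 to -0.10).

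The gene with the lowest p was Homer1, whose 6 normoxia libraries had 120, 130.3 and 148 CPM as lowest, median and highest value, against 86.6, 103 and 117 CPM in hypoxia. The groups did not overlap, as in 0.394% of all tested genes in that direction. The log2 difference was -0.38 (SE 0.0787, adjusted p = 0.0682), from 133 ± 10.5 CPM to 103 ± 12.3 CPM (n = 6 each), and -0.35 (SE 0.0819, adjusted p = 0.111) without WT hypoxia replicate 1. It passed the test with the length and GC trend removed (-0.44, SE 0.0737, adjusted p = 0.0156, beside 0.169% of all tested genes), with a choroid plexus covariate (beside 0.0843%), and without P301S normoxia replicate 5 (adjusted p = 0.0485). Over the 9 alternatives the adjusted p ran from 0.00368 to 0.560, the highest without the 6 libraries lowest in choroid plexus markers. Those 6 include WT hypoxia replicates 1, 4 and 5 and WT normoxia replicate 4. That fit called 0 of all tested genes for hypoxia in WT. A number in the sample titles, whose meaning is not given in the sources used here, differs between the WT groups: 66 (n = 5) and 37 (n = 1) in normoxia, 31 (n = 4) and 32 (n = 2) in hypoxia. Homer1 was at 120 to 148 CPM under 66, 127 CPM under 37, 92.7 to 117 CPM under 31 and 86.6 to 108 CPM under 32. What the number stands for and hypoxia cannot be told apart. Each P301S library has a number of its own, found in no other library. What the number stands for and genotype therefore cannot be told apart either.

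Gria4, an AMPA subunit prominent in interneurons, had 65.5, 87.6 and 108 CPM in WT normoxia and 96.8, 112 and 149 CPM in WT hypoxia. Its log2 difference was 0.45 (SE 0.146, adjusted p = 0.219), and 0.37 (SE 0.146, adjusted p = 0.335) without WT hypoxia replicate 1. The 11 interneuron markers, with Dlx1 at 0 in every library, summed to 937 to 1080.0 CPM in WT normoxia and 1006 to 1210.4 CPM in WT hypoxia; their part in the result was not tested. Gria3 had 321, 344 and 389 CPM in WT normoxia and 352, 387 and 407 CPM in WT hypoxia, a log2 difference of 0.14 (SE 0.0586, adjusted p = 0.330). Neither gene passed, and both pairs of ranges overlapped. Of the genes highest in WT hypoxia replicate 1, Gria4 thus moved least without it, while Grm4 went from 0.68 (SE 0.376, adjusted p = 0.498) to -0.12, Grin2c from 0.26 to 0.02 and Homer3 from 0.07 to -0.14.

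Hypoxia against normoxia in P301S gave 0 calls among the 31 genes by the same edgeR test, beside 73 of all tested genes (0.41%). At an unadjusted p below 0.05 were 6 of the 31 and 13.8% of all tested genes, and DESeq2 called 1, Dlg3, beside 2.04% of all tested genes. The median was 0.05, with 21 above 0 and 10 below. The 3 group III metabotropic receptors lay below 0 (-0.38 to -0.13) and 5 of the 6 NMDA subunits above (up to 0.25). The dentate granule cell markers summed to 528 to 692 CPM in P301S normoxia (median 606) and 653 to 871 CPM in P301S hypoxia (median 708), and the interneuron markers had medians of 950.3 and 1066 CPM. Their part in the result was not tested.

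Dlg3, the gene of the scaffold SAP102 that carries NMDA receptors, had 258, 261, 262, 263 and 269 CPM in P301S normoxia and 267, 293 and 311 CPM as lowest, median and highest value in P301S hypoxia. The lowest hypoxia library alone lay within the normoxia range. The log2 difference was 0.16 (SE 0.0410, adjusted p = 0.0869), and the adjusted p was 0.0464 without P301S hypoxia replicate 5. Grin1, the obligatory NMDA subunit, had 226, 232, 235, 257 and 294 CPM in normoxia and 253, 292 and 318 CPM in hypoxia, at 0.20 (SE 0.0773, adjusted p = 0.249). Of the body of Grin1, 27.5% lies under the antisense gene Grin1os. Counting used no strand setting and by default drops reads over several genes, so reads there are missing from its count. With the length and GC trend removed, Dlg3 (0.17, SE 0.0361, adjusted p = 0.0202) and Grin1 (0.21, SE 0.0524, adjusted p = 0.0421) were called, beside 1.43% of all tested genes. The kainate subunit Grik3 had 122, 129, 135, 141 and 157 CPM in normoxia and 93.9, 109.7 and 144 CPM in hypoxia, at -0.25 (SE 0.0884, adjusted p = 0.196).

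The difference between the hypoxia effects in P301S and in WT gave 0 calls among the 31 genes by the same edgeR test, beside 7 of all tested genes (0.0394%). At an unadjusted p below 0.05 were 4 of them and 9.43% of all tested genes, and DESeq2 called 1, Homer1, beside 0.293% of all tested genes. For Homer1 the hypoxia effect was -0.38 in WT and 0.10 (SE 0.0823, adjusted p = 0.609) in P301S, a difference of 0.48 (SE 0.114, adjusted p = 0.155). It was 0.45 (SE 0.116, adjusted p = 0.227) without WT hypoxia replicate 1 and 0.58 (SE 0.107, adjusted p = 0.0442, beside 0.045% of all tested genes called) with the length and GC trend removed. Over the 8 alternatives its adjusted p ran from 0.0225 to 0.683. Gria4 was at -0.56 (SE 0.210, adjusted p = 0.395) and Dlg3 at 0.12 (SE 0.0566, adjusted p = 0.506). The comparisons share groups, so the low Homer1 level of WT hypoxia enters the hypoxia effect in WT, the genotype difference in hypoxia and this difference alike.

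Homer1 makes long scaffold forms and a short form, Homer1a, which neuronal activity induces as an immediate early gene and which uncouples the scaffold. Counts per gene do not separate these forms. Homer1 ran from 105 to 140.5 CPM in P301S normoxia and from 112 to 133 CPM in P301S hypoxia, so its 2 P301S groups overlapped. Of 15 immediate early genes, 15 lay below 0 for hypoxia in WT (median -0.45) and 12 in P301S (median -0.26), against medians of 0.00 over all tested genes in both. In P301S 4 fell, Fos (-1.34, SE 0.249, adjusted p = 0.0210), Egr2 (-1.34, SE 0.282, adjusted p = 0.0399), Arc (-0.85, SE 0.178, adjusted p = 0.0436) and Nr4a1. In WT 1 fell, Fosb, which lost its call without WT hypoxia replicate 1 (adjusted p = 0.0711). Between the genotypes 0 of the 15 passed in normoxia and 1 rose in hypoxia, Egr3 (0.29, SE 0.0767, adjusted p = 0.0482), at an adjusted p of 0.0765 without WT hypoxia replicate 1. Fosb, Nr4a1 and Egr3 were chosen after their values were seen. Fos (-0.91, adjusted p = 0.124), Egr2 (-1.39, adjusted p = 0.0627) and Arc (-0.69, adjusted p = 0.116) did not pass in WT; without WT hypoxia replicate 1 Fos did (-1.19, adjusted p = 0.0473). Arc, whose product removes AMPA receptors from synapses, had ranges of 122 to 196 CPM in WT normoxia, 86.2 to 133 CPM in WT hypoxia, 117 to 207 CPM in P301S normoxia and 62.6 to 121 CPM in P301S hypoxia.

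**Figure D5:**
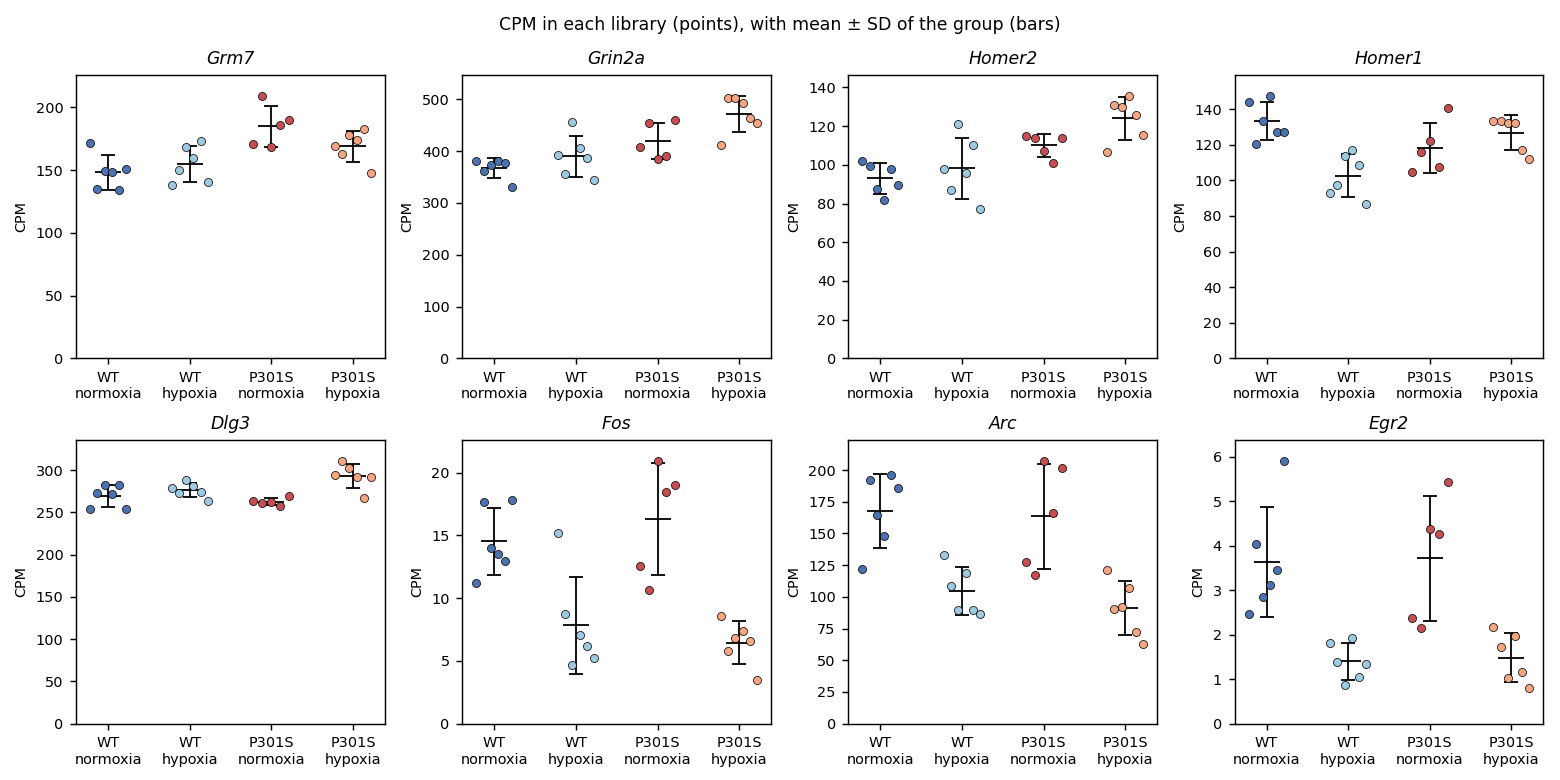
CPM (linear axes from 0) of Grm7, Grin2a, Homer2, Homer1, Dlg3 and the immediate early genes Fos, Arc and Egr2 in each library (points) by group, with mean ± SD as bars. Homer1 is lowest in WT hypoxia (86.6 to 117 CPM), while Arc is low in both hypoxia groups (86.2 to 133 and 62.6 to 121 CPM).

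The start regions of Homer1 and Homer2 are shown because both genes were called for P301S against WT in hypoxia and Homer1 is activity-induced. For hypoxia against normoxia Homer2 was called in neither genotype, and Homer1 in WT only, under some alternatives. RefSeq promoter windows (GRCm38.p6, 250 bases before to 50 after a start) matched 20 of the 31 genes, with 29 windows. Each was searched on both strands for TGACG, the core of the cAMP response element, and ACGTG, a form of the hypoxia response element core. Both are in capitals, and other forms were not searched. The windows run 5′ to 3′ on the strand of the gene.
Homer1, first start (chr13:93303507-93303806, + strand): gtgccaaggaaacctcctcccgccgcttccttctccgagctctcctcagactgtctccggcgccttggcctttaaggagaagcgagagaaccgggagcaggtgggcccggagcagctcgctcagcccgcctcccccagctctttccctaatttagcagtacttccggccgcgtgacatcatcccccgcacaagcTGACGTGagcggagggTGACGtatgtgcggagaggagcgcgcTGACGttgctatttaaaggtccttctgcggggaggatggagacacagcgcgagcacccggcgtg
Homer1, second start (chr13:93307784-93308083, + strand): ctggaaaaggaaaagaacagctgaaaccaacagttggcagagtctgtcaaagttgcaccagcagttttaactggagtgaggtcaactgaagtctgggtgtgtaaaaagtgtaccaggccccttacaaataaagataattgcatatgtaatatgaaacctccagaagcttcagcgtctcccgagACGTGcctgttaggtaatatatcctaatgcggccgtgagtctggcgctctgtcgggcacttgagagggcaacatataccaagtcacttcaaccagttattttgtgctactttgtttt
Homer2, first start (chr7:81706876-81707175, - strand): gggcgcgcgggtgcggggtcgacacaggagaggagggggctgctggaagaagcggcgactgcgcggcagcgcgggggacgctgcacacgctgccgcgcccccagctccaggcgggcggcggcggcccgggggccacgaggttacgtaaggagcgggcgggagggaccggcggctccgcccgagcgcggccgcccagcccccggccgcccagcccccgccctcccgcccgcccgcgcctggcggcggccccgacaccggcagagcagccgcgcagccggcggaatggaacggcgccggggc
The first Homer1 window holds TGACG 3 times, with first bases at -56, -40 and -14 from the start, and ACGTG at -54, overlapping the first of these. The second Homer1 window holds ACGTG at -67. The Homer2 window shown holds neither, nor does a second Homer2 window (chr7:81692916-81693215) that is not shown. Among all 32851 windows of this length 20.8% hold TGACG, 1.03% hold it 3 times or more, and 19.6% hold ACGTG. Of the 29 windows of these genes 6 (20.7%) hold TGACG and 5 (17.2%) hold ACGTG. A match is a run of letters and is not a known site of binding.

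The wider glutamatergic synapse was followed in 57 other genes (auxiliary subunits, further receptors and scaffolds, adhesion proteins, transporters and signalling enzymes), of which 52 were tested. Lrrtm1, Lrrtm2, Lrrtm3, Cbln1 and Grm6 did not pass the filter, and the first 4 of these lie wholly under another gene. In normoxia 6 rose and 1 fell in P301S, beside 2.57% higher and 3.78% lower of all tested genes, with a median of 0.06. The gene that fell was Cnih2, an auxiliary subunit of AMPA receptors (-0.34, SE 0.101, adjusted p = 0.0465), named because it was the only one; with the length and GC trend removed it was at -0.17 (adjusted p = 0.164). Lrrtm4, an organiser of excitatory synapses of dentate granule cells, rose by 0.81 on the log2 scale (SE 0.108, adjusted p = 0.00024), from a mean of 48.8 to 85.8 CPM without overlap. The scaffolds Magi2 (0.32, SE 0.0484, adjusted p = 0.000866) and Dlgap2 (0.34, SE 0.0603, adjusted p = 0.00306) and the adhesion protein gene Nlgn1 (0.34, SE 0.0760, adjusted p = 0.0122) rose as well. With the length and GC trend removed Lrrtm4 stayed called (0.51, adjusted p = 0.00341), while Magi2 (0.08, adjusted p = 0.310), Dlgap2 (0.19, adjusted p = 0.0578) and Nlgn1 (0.03, adjusted p = 0.858) did not pass.

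In the other 4 comparisons edgeR's test called 0 of the 52. At an unadjusted p below 0.05 were 13 for P301S against WT in hypoxia (18.2% of all tested genes), 3 for hypoxia in WT (11.6%), 11 for hypoxia in P301S (13.8%) and 11 for how far these effects differed (9.43%). For genotype in hypoxia Nlgn1 was at 0.26 (adjusted p = 0.0651). For hypoxia in WT the lowest p-values were those of Magi2 and Kalrn (adjusted p of 0.193 and 0.215), and for hypoxia in P301S those of Lrrtm4 (-0.46, adjusted p = 0.0543) and the pentraxin gene Nptx2 (0.57, adjusted p = 0.113). For the difference of the effects they were those of Lrrtm4 (-0.67, adjusted p = 0.134) and Magi2 (-0.21, adjusted p = 0.335).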

How the data were processed

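RNA-seq libraries of whole mouse hippocampus were made with a stranded poly(A) kit from RNA above an integrity threshold, per the labels' protocols. The authors deposited raw counts, in read pairs for each gene. Per the file headers they come from featureCounts 1.6.2 on Ensembl release 90, used without a strand option and over the entire gene span, so intron reads count too. The alignment names in those headers say that duplicates were removed. The submitters' processing notes name HISAT2, featureCounts, DESeq2 1.6.3 and the mm10 build. A read lying over several genes is dropped at this tool's default.

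Counts were tested with edgeR 4.0.16 (R 4.3.3): genes filtered with filterByExpr (minimum count 10), TMM scaling, and a robust quasi-likelihood fit of 4 group means to all 23 libraries. Fold changes are log2, second group minus first, and SE is the fold change divided by the root of F. The edgeR method with legacy = TRUE was run first and is kept as an alternative, and both call the same members. Gene symbols and exon lengths came from the reference annotation of GRCm38, where 49995 of 52636 genes had the same coordinates. Total counts were 19134422 to 25820145, and the lowest count of any of the 31 genes in a library was 177. No 2 libraries of a group agreed within sampling noise. The fit was tested on simulated data.

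Genes were described in full where called, or among the 3 lowest p-values of a comparison. Of the other synapse genes at most 4 called per comparison were named, otherwise the 2 with the lowest p; 1 gene that this rule names is not reported here. Alternatives were DESeq2 1.42.0, upper-quartile scaling, no filter or a mean of at least 1 CPM, only the groups compared, removal of length and GC trends, a choroid plexus covariate, leaving out the 6 libraries lowest in choroid plexus markers, and leaving out each library. The genes, lists and tests were chosen with earlier results of these data known, and the cerebellar markers were listed after WT hypoxia replicate 1 was seen to stand apart.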

Additional observations from a re-analysis of the deposited data

Results flagged for a closer look

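Of 124 sets of values (each of the 31 genes in each group), 12 had a library whose gap to its nearest neighbour was large for the range of the group by Dixon's criterion, which chance alone meets in about 1 of 20 sets. WT hypoxia replicate 1 held 4 of them: Grm4 at 155 CPM (nearest library 31.3 CPM), Grin2c at 176 CPM (nearest 95.0 CPM), Homer3 at 69.0 CPM (nearest 40.1 CPM) and, as the lowest value, Grik1 at 44.5 CPM (nearest 53.6 CPM). The cerebellar markers of this library are given with the results above.

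P301S normoxia replicate 1 held 5, with Grik5 at 388 CPM (nearest 353 CPM), Shank1 at 1079.6 CPM (nearest 972 CPM), Grm2 at 100.7 CPM (nearest 78.6 CPM), Homer3 at 41.7 CPM (nearest 31.2 CPM) and Grin2b lowest at 688 CPM (nearest 857 CPM). It also had the lowest length score of its group, -0.06. The remaining 3 were Grin3a at 86.4 CPM in WT normoxia replicate 4 (nearest 67.8 CPM), Dlg4 at 769 CPM in WT hypoxia replicate 4 (nearest 732 CPM) and Grm4 lowest at 30.3 CPM in P301S normoxia replicate 5 (nearest 40.1 CPM).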

How the results depend on the processing

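Among the 31 genes, the count called for P301S against WT in hypoxia, 3 as reported, was 6 with DESeq2, 4 with the choroid plexus covariate, 1 with no filter on low counts, 0 with only the groups compared, 0 with the length and GC trend removed and 0 without the 6 libraries lowest in choroid plexus markers. It ran from 0 to 5 when 1 library was left out. In normoxia it was 1 under each alternative, and 0 to 4 with 1 library left out, though the gene called with the length and GC trend removed was Homer1 and not Grm7. For hypoxia in WT the count was 1 with DESeq2, 1 with the length and GC trend removed and 1 with the choroid plexus covariate (0 to 1 with 1 library left out). For hypoxia in P301S it was 1 with DESeq2 and 2 with the trend removed (0 to 1). For the difference of the hypoxia effects it was 1 with DESeq2 and 1 with the trend removed (0 to 0). The cause of these changes was not tested, and some of the fits also had fewer libraries. Over all tested genes the counts called ran over the alternatives from 368 to 1639, 16 to 854, 0 to 151, 38 to 363 and 0 to 52 for genotype in normoxia, genotype in hypoxia, hypoxia in WT, hypoxia in P301S and their difference. With 1 library left out they ran, in the same order, from 365 to 2069, 91 to 618, 2 to 29, 7 to 154 and 0 to 13. For hypoxia in P301S, 32 higher and 41 lower calls became 151 and 103 with the trend removed and 206 and 157 with DESeq2.

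With the length and GC trend removed, 12, 6, 3, 2 and 8 of the 31 fold changes changed sign in that order of comparisons, none of them called. Without WT hypoxia replicate 1, 5 did for genotype in hypoxia, 3 for hypoxia in WT and 1 for the difference. Among the genes described with full statistics and the 3 high in that library, followed for hypoxia in WT, 5 values turned over all alternatives: Grik2 in normoxia was at -0.10 with the trend removed; for hypoxia in WT, Grm4 was at -0.24 and Grin2c at -0.030 without the 6 libraries lowest in choroid plexus markers, and Grm4 at -0.12 and Homer3 at -0.14 without WT hypoxia replicate 1. With 1 library left out Grm4 and Homer3 ran from -0.12 to 0.84 and from -0.14 to 0.19. WT hypoxia replicate 1 is among the 6 libraries lowest in choroid plexus markers, so the values without those 6 also leave it out. Per kb of gene body Gria1 had rank 10 and Grik5 rank 7. DESeq2 gave no p for 1 of the 31 genes, Grm4. The lowest count of any of the 31 genes in a library was 177, so none was near the limit of detection. No paired analysis was possible because replicate numbers were given in accession order and the labels tie no libraries across groups.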
